A study of Mus musculus with 6 samples.

Results

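Neurons handle calcium with many small proteins whose calcium-binding fold is the EF-hand, a loop between a pair of helices. Some of these proteins act mainly as buffers, which take up calcium ions as they enter the cell and so shape the size and length of a calcium signal. Others are sensors, which change shape on binding calcium and then act on a partner protein or a membrane. Expression of the buffer genes is widely used to tell neuron classes apart. With earlier results of these data known, the 10 genes described here were chosen by name. They are the buffer genes Calb1 (calbindin), Calb2 (calretinin) and Pvalb (parvalbumin), the neuronal calcium sensor genes Hpca, Hpcal1, Hpcal4, Vsnl1 and Ncald, and the N-terminal EF-hand genes Necab1 and Necab2. All 10 were among the 21926 genes of the count tables.

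The cells came from the ventromedial hypothalamus (VMH), a mostly glutamatergic nucleus known for its part in energy balance, in a rough dissection of the hypothalamus. The 6 mice, 3 of each sex, were sampled at postnatal day 10, and every one carried both Ai14f/+ and Sf1-Cre. Sf1-Cre is driven by the gene for the transcription factor SF-1 (Nr5a1), so the Ai14f reporter, once switched on, stays on in cells of that lineage whether or not Nr5a1 is still expressed. The cells were purified by fluorescence-activated sorting into 96 wells per mouse, and the mouse is the replicate throughout. The labels give neither the gate of the sort nor the litter of any mouse, and there was no group without the Cre allele.

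A well was kept if at least 500 genes had a count and under 25% of its counts came from mitochondrial genes, which left 530 of 576 wells. Of these, 518 were neurons, with a count of at least 3 of 9 genes that most neurons express. The neurons numbered 79, 86 and 86 in females 1, 2 and 3 and 92, 83 and 92 in males 1, 2 and 3. The median neuron held 6013.5 counts. Female 2 was the shallowest mouse at a median of 2120 counts per neuron, against 5529 to 7979.5 in the other 5. Nr5a1 was counted in 156 neurons (30.1%), Fezf1 in 211 (40.7%) and the vesicular glutamate transporter gene Slc17a6 in 407 (78.6%). Over all neurons of a mouse, the summed level of 7 astrocyte genes was 13.1 to 41.6 counts per 1000000 (CPM), that of 6 oligodendrocyte genes 32.0 to 87.9 CPM and that of 5 microglial genes 0 to 4.63 CPM. The microglial gene C1qa was at 0 in all 6 mice. The 12 kept wells that were not neurons were shallow (median 938.5 counts), and a count of each of Hpcal1, Hpcal4 and Ncald was found in 1 of them.

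Per the GENCODE vM21 annotation of GRCm38/mm10, all 10 are protein-coding genes. Calb1 lies at chr4:15881264-15908064 on the forward strand, Calb2 at chr8:110137502-110168210 on the reverse strand and Pvalb at chr15:78191114-78206400 on the reverse strand. Among the sensors, Hpca lies at chr4:129111570-129122036 (reverse), Hpcal1 at chr12:17690856-17791933 (forward), Hpcal4 at chr4:123183227-123194701 (forward), Vsnl1 at chr12:11325242-11436613 (reverse) and Ncald at chr15:37366175-37792570 (reverse). Necab1 lies at chr4:14952245-15149794 (reverse) and Necab2 at chr8:119446719-119472640 (forward). Exons of Hpca overlap those of Tmem54 on the other strand, and the sources used here do not say on which strand reads were counted. Tmem54 held 1 to 19 counts per mouse, against 42 to 222 counts for Hpca.

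The 5 sensor genes form a family of close relatives, and their similarity bears on how well reads can be told apart. The first 90 coding bases of each (GENCODE vM21, 5′ to 3′) are shown because this stretch encodes the end of the protein that carries the fatty myristoyl group, which moves these sensors to membranes. Capitals mark the bases that are the same as in Hpca at that position of the alignment, and Hpca itself is in lower case.
Hpca: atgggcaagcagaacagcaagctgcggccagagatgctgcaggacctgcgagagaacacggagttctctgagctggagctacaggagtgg
Hpcal1: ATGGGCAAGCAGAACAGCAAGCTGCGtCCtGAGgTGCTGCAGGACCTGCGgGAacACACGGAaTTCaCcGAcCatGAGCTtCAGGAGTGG
Hpcal4: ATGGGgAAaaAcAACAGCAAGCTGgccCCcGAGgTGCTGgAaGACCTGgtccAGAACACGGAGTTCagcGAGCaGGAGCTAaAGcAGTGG
Ncald: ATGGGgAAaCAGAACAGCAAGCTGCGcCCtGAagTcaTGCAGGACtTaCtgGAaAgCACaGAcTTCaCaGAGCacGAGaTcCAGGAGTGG
Vsnl1: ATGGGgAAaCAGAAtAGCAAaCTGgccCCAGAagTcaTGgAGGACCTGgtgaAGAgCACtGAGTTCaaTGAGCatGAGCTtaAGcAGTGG
In this stretch 77 of 90 bases were shared between Hpcal1 and Hpca, 69 between Hpcal4 and Hpca, 68 between Ncald and Hpca and 65 between Vsnl1 and Hpca. Over the whole coding sequence Hpca and Hpcal1 were 86.0% identical, Hpcal4 and Vsnl1 82.4%, and Hpca and Ncald 78.6%. The longest unbroken run of shared bases in any pair was the 46 bases of Hpca and Ncald. Calb1 and Calb2 were 65.1% identical with a longest run of 12 bases, and Necab1 and Necab2 58.5% with a longest run of 14. The sources used here do not say how reads that match several genes were counted, so counts of Hpca, Hpcal1 and Ncald could share some reads.

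Pooled over mice, Calb2 was detected in the most neurons of the 10 genes, and Pvalb was not detected. The order was not the same in every mouse: Calb2 was counted in 15.1% of the neurons of female 2, below Hpcal1 (60.5%) and Calb1 (41.9%), and in male 1 Calb1 (88.0%) was above Calb2 (84.8%). RNA of Calb2 was counted in 400 of 518 neurons (77.2%), that of Ncald, the neurocalcin delta gene, in 387 (74.7%) and that of Calb1 in 375 (72.4%). Hpca, the gene of a sensor best known from hippocampal pyramidal cells, was counted in 345 neurons (66.6%) and its near relative Hpcal1 in 344 (66.4%). Hpcal4, a visinin-like sensor, was counted in 230 (44.4%). Necab2, whose product binds receptors such as an adenosine receptor, was counted in 168 (32.4%), and Vsnl1, the gene of visinin-like protein, in 131 (25.3%). Necab1 was counted in 27 (5.21%). Pvalb, the marker of fast-spiking interneurons in cortex, was counted in 0 of 518 neurons. With 3 counts as the most that a count of 0 allows, up to 0.579% of neurons could hold a Pvalb count, and its level could reach 0.909 CPM over 3300302 counts. Such limits and the intervals of shares cover counting error only.

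**Figure D1:**
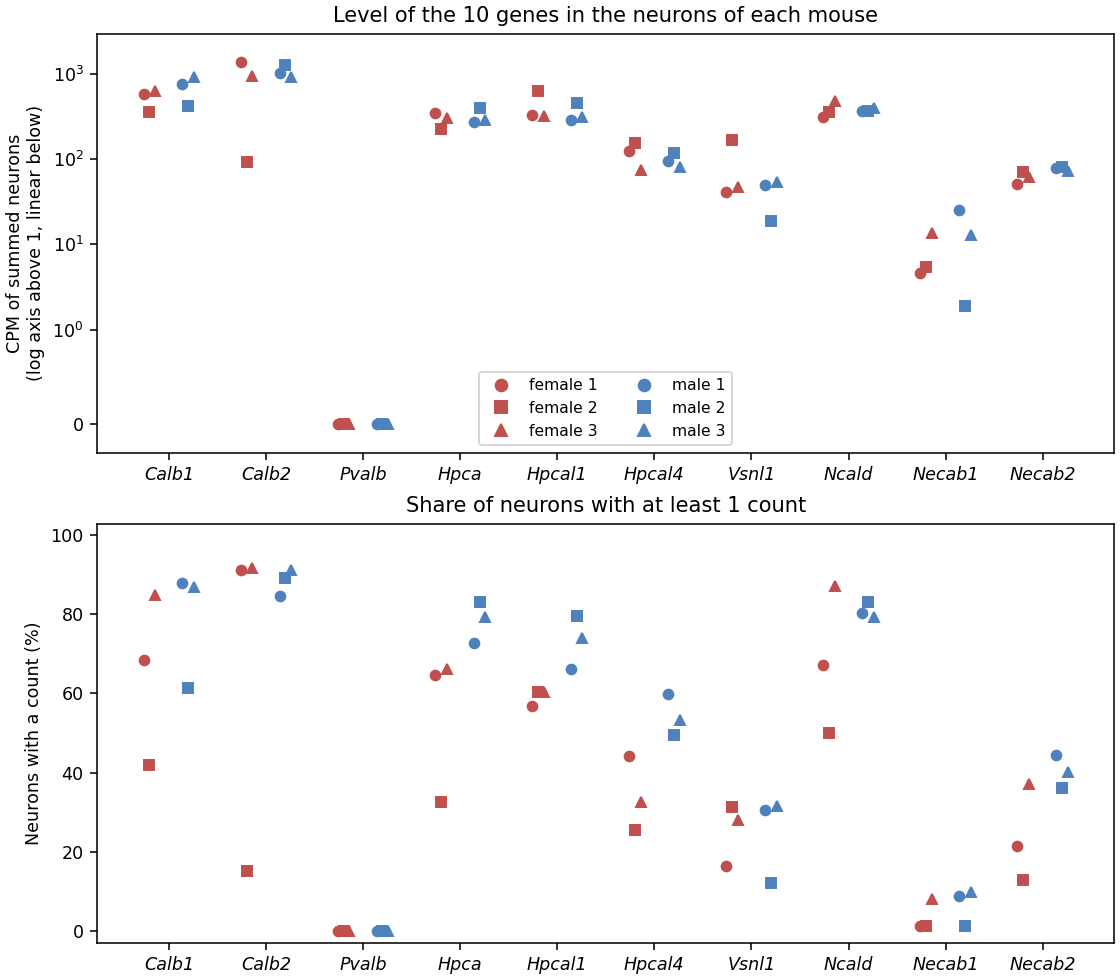
The upper panel plots the level of each of the 10 genes in the summed neurons of each mouse, in CPM on an axis that is logarithmic above 1 and linear below, and the lower panel the share of neurons with at least 1 count, in percent. Each point is 1 mouse, red for females and blue for males, and Calb2 in female 2 (91.9 CPM, 15.1% of neurons) lies below the 5 other mice (915 to 1385 CPM, 84.8% to 91.9%).

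Levels are given as CPM, the summed counts of a gene in the neurons of a mouse scaled by the total of all genes there. A neuron with a count held a median of 7 counts for Calb2, 4 for Calb1, 3 for Ncald, 2 for Hpca and Hpcal1, and 1 for Hpcal4, Vsnl1, Necab1 and Necab2. Calb2 averaged 940 ± 454 CPM (SD, n = 6 mice) and Calb1 613 ± 211 CPM. Among the sensors, Hpcal1 averaged 391 ± 130 CPM, Ncald 382 ± 55.8, Hpca 307 ± 61.1, Hpcal4 108 ± 30.9 and Vsnl1 63.2 ± 52.6 CPM. Necab2 averaged 69.1 ± 10.9 CPM and Necab1 10.6 ± 8.68 CPM.

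Genes differ in length, so their levels are also given as CPM per kilobase of exon. On that scale the order was Calb2 (539 ± 261), Hpcal1 (230 ± 76.7), Calb1 (126 ± 43.6), Hpca (105 ± 20.9), Ncald (44.5 ± 6.50), Necab2 (33.0 ± 5.21), Vsnl1 (32.3 ± 26.9), Hpcal4 (20.3 ± 5.80) and Necab1 (2.03 ± 1.66). The ranges over the 6 mice of neighbours in this order overlapped except in 2 places. Hpca, at 77.7 to 138 CPM per kilobase, lay above Ncald at 36.9 to 56.1, and Hpcal4, at 13.9 to 29.4, lay above Necab1 at 0.357 to 4.88. If only the ends of transcripts were read, division by exon length would not make genes comparable, and the sources used here do not say which part was read. The order by CPM differed, with Calb1 (613) above Hpcal1 (391) and Ncald (382) above Hpca (307).

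Female 2 stood apart from the other mice in Calb2. Calb2 was at 1385, 91.9 and 963 CPM in females 1, 2 and 3 and at 1017, 1267 and 915 CPM in males 1, 2 and 3. It was counted in 13 of 86 neurons of female 2 (15.1%, exact 95% binomial interval 8.30% to 24.5%) and in 84.8% to 91.9% of the neurons of the other 5 mice. To compare shares at equal depth, each neuron was thinned at random to 2175 counts, and shallower neurons were left out (46 of female 2, 6 in the other mice together). At that depth Calb2 was counted in 15.0% of 40 neurons of female 2 and in 65.9% to 82.9% of the neurons of each other mouse.

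The other members differed from Calb2 in where female 2 lay. Hpca was also lowest there, at 227 CPM against 276 to 403 CPM, and in thinned neurons it was counted in 35.0% against 41.8% to 55.4%, a smaller gap than that of Calb2. Calb1 was at 585, 357 and 630 CPM in females 1 to 3 and at 763, 419 and 923 CPM in males 1 to 3, so that male 2 lay near female 2, the lowest. Thinned, Calb1 was counted in 47.5% of the neurons of female 2, inside the 47.0% to 72.2% of the others. Vsnl1 and Hpcal1 were instead highest in female 2, Vsnl1 at 168 CPM against 18.7 to 54.2 CPM and Hpcal1 at 627 CPM against 288 to 457 CPM. Female 2 also had the lowest level of Slc17a6, 233 CPM against 341 to 646 CPM, and 11 neurons with a count of the dynorphin precursor gene Pdyn against 33 to 55. Thinned, Slc17a6 was counted in 55.0% of the neurons of female 2, inside the 49.4% to 70.0% of the others. Pdyn was then counted in 17.5% (7 of 40 neurons) against 20.9% to 35.5%. The part of depth and of the sampled cells in the low Calb2 value was not tested beyond the thinning.

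The neurons of a mouse held several of these genes at once. A neuron had a count of 5 of the 10 genes at the median, with a range of 0 to 9, and after thinning the median was 3 and the range 0 to 7. The median per mouse was 4, 2.5 and 5 for females 1 to 3 and 5, 5 and 6 for males 1 to 3. Calb1 and Calb2 were counted together in 321 neurons (62.0%), Calb1 without Calb2 in 54 (10.4%), Calb2 without Calb1 in 79 (15.3%) and neither in 64 (12.4%). In female 2, 30 of 86 neurons held Calb1 without Calb2 and 6 held both. In each of the other 5 mice neurons with both genes were the most frequent class (56.6% to 81.4%). After thinning this still held in female 3, male 1 and male 3. Calb2 without Calb1 was then the most frequent class in female 1 (43.4% against 39.5% with both) and male 2 (43.4% against 34.9%).

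No member passed between the sexes by edgeR's quasi-likelihood test on the summed neurons (3 females, 3 males). The log2 fold changes of male over female ran from -0.87 (Vsnl1, SE 0.58) to 0.43 (Calb1, SE 0.32), which does not show that the sexes were alike. The adjusted p in edgeR was 0.9997 for all 8 members tested, and the share of genes called was 0% (0 of 6774 genes, with 168 at an unadjusted p under 0.05). DESeq2 called 4 genes (0.059%) and limma voom 0, none of them a member. Pvalb and Necab1 had too few counts to be tested. Necab2 was at 50.9, 70.3 and 62.5 CPM in females 1 to 3 and at 78.0, 80.5 and 72.3 CPM in males 1 to 3, and the values of the sexes did not overlap. This was true of 8.52% of the 6774 genes, and the two-sided exact permutation p for Necab2 was 0.1, the smallest that 3 mice against 3 can give. The other 8 members with a count overlapped between the sexes in CPM.

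The share of neurons with a count was compared between the sexes before and after thinning. Hpca, Hpcal1 and Hpcal4, 3 of the 9 members with a count, were found in a higher share of neurons in every male than in any female. This was true of 20.7% of the 6774 genes tested for sex and the opposite of 0.0738%. For Hpca the shares were 64.6%, 32.6% and 66.3% in females 1, 2 and 3 and 72.8%, 83.1% and 79.3% in males 1, 2 and 3. The exact permutation p was 0.1 for each of these 3 genes, and 0.3 after adjustment over 9 genes. In thinned neurons all 9 genes overlapped between the sexes, where 3.68% of all genes were higher and 4.61% lower in every male, and Hpca was counted in 43.1% ± 8.16 of neurons from females (SD, n = 3) and 47.2% ± 7.24 of those from males (SD, n = 3).

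The same genes were then compared between neurons with and without a count of each of 6 marker genes. The markers were Nr5a1, Fezf1 (a transcription factor of the VMH), Tac1 (precursor of substance P), Pdyn, Sst (somatostatin) and Gad1 (an enzyme of GABA synthesis). The counts of the neurons on each side were summed per mouse and compared with edgeR's quasi-likelihood test, with the mouse as a block. An adjusted p under 0.05, by Benjamini-Hochberg over all genes tested, is called a pass, and log2 fold changes (with standard error, SE) are of detected over undetected neurons. The marker groups overlap: 299 neurons held 2 or more of the markers, and 91 of the 156 Nr5a1 neurons also held Pdyn. The comparisons are therefore not independent of each other. A neuron without a count may still express the marker, and in all but the Sst comparison the detected side was deeper.

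Of 47 tests of a member in a marker comparison 14 passed, of which 9 were higher and 5 lower in the neurons with the marker. Hpcal1 passed for 5 of the 6 markers, Calb1 and Hpca for 3 each, Calb2 for 2 and Ncald for 1. Hpcal4, Vsnl1 and Necab2 passed for none. They had the fewest counts of the tested members, 327, 168 and 232 over all neurons against 1025 to 3368 for the others. Their lack of a pass therefore does not show that their levels were alike on the 2 sides. The sign of the 14 log2 fold changes was the same in every alternative fit. When mouse was left out as a term, however, 0 of the 14 passed, and the level differences between mice then entered the error.

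**Figure D2:**
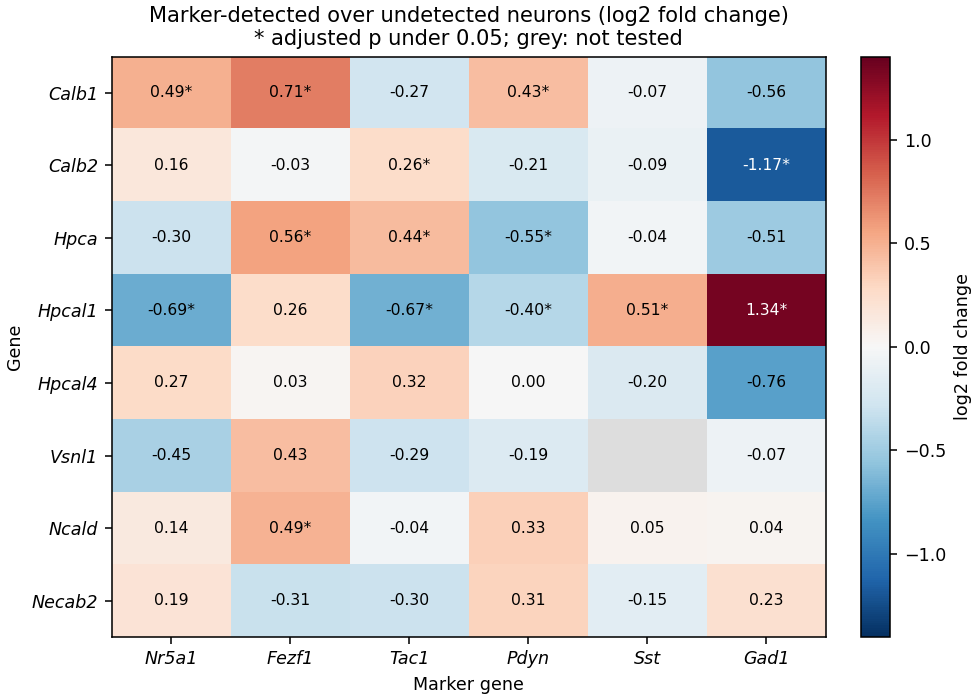
Each cell gives the log2 fold change of a gene (rows) in neurons with a count of a marker (columns) over neurons without one, from edgeR with mouse as a block, on a colour scale from blue (lower) to red (higher). Asterisks mark the 14 of 47 tests with an adjusted p under 0.05 and grey a gene not tested. The row of Hpcal1 is lower for Nr5a1, Tac1 and Pdyn and higher for Sst and Gad1.

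In Nr5a1 neurons, Calb1 was higher and Hpcal1 lower than in the neurons without an Nr5a1 count. These 2 of 8 members passed, where 1.2% of 3985 genes did. Of all genes, 0.828% were called as higher and 0.376% as lower, with 0.251% called by DESeq2 and 0.878% by limma voom. The median log2 fold change was 0.15 over the 8 members and 0.00 over all genes tested. Hpcal1 was at 229 to 301 CPM (median 254) in the Nr5a1 neurons of the 6 mice and at 313 to 674 CPM (median 403) in the rest. It was lower in the Nr5a1 neurons of 6 of 6 mice, and the ranges did not overlap. The log2 fold change was -0.69 (SE 0.11, edgeR adjusted p = 8.02e-06). A summed level cannot tell fewer neurons with the gene from less RNA per neuron. In thinned neurons Hpcal1 was counted in a mean of 37.8% of those with Nr5a1 and 45.9% of those without. Nr5a1 was there called again from the thinned counts and held by 61 neurons, so these are not the same 2 groups.

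Calb1 was at 344 to 1080 CPM (median 764) in Nr5a1 neurons and at 338 to 839 CPM (median 497) without Nr5a1. It was higher in 5 of 6 mice, with female 2 as the exception, and its log2 fold change was 0.49 (SE 0.081, edgeR adjusted p = 2.32e-05). The other 6 members did not pass, and their log2 fold changes ran from -0.45 (Vsnl1) to 0.27 (Hpcal4). In thinned counts neither gene passed: Hpcal1 was at -0.71 and Calb1 at 0.28, with adjusted p of 0.589 and 0.898 in edgeR. Over all alternatives the adjusted p ran from 3.52e-07 to 0.589 for Hpcal1 and from 1.1e-06 to 0.999 for Calb1.

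The marker lists of other neuron classes moved with this comparison. Over 7 arcuate neuron genes the summed level was 28.3 to 843 CPM in the Nr5a1 neurons and 86.5 to 1791 CPM in the rest, and 3 to 6 of the 7 were at 0 in a mouse's Nr5a1 neurons. Of these genes Pomc, the precursor of melanocortins, was lower in Nr5a1 neurons (log2 fold change -1.83). Over 7 GABA neuron genes the summed level was 0 to 69.8 CPM against 49.5 to 153 CPM. The VMH gene Adcyap1 was higher (0.66). The median depth was 6707.5 counts per Nr5a1 neuron against 5445. When the comparison was restricted to neurons with a Slc17a6 count, both Calb1 and Hpcal1 passed again, and any further part of these differences in the result was not tested.

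**Figure D3:**
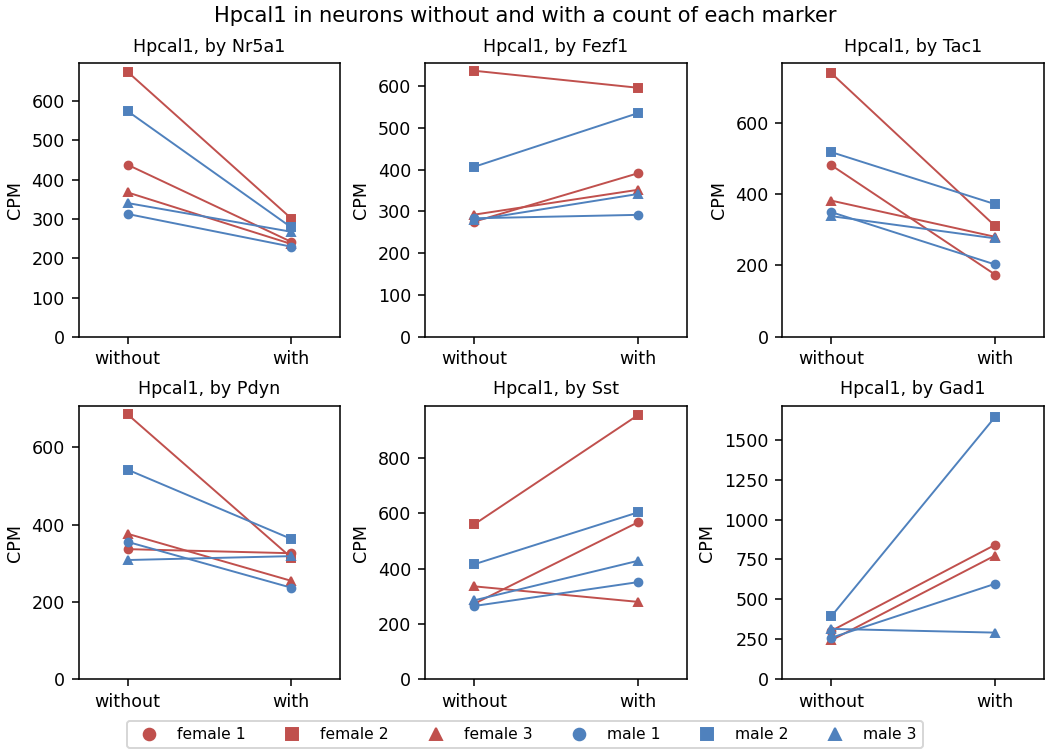
Each panel plots the level of Hpcal1 (CPM, linear axis from 0) in the neurons of each mouse without and with a count of 1 marker, with a line joining the values of a mouse. The lines fall in all 6 mice for Nr5a1 and Tac1, and rise in 5 of 6 mice for Sst and 4 of the 5 tested mice for Gad1.

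In Fezf1 neurons, Calb1, Hpca and Ncald were all higher. These 3 of 8 members passed, where 1.92% of 4478 genes did, and all 3 were higher in 6 of 6 mice. Of all genes, 1.05% were called as higher and 0.871% as lower, with 0.804% called by DESeq2 and 1.83% by limma voom. The median log2 fold change was 0.34 over the 8 members and -0.01 over all genes tested. Calb1 was at 405 to 1035 CPM (median 763) in Fezf1 neurons and at 320 to 774 CPM (median 419) in the rest, a log2 fold change of 0.71 (SE 0.10, edgeR adjusted p = 2.39e-06). Hpca was at 287 to 520 CPM (median 375) with Fezf1 and 175 to 342 CPM (median 238) without it, a log2 fold change of 0.56 (SE 0.11, edgeR adjusted p = 8.11e-04). Ncald was at 377 to 552 CPM (median 447) against 253 to 387 CPM (median 311), a log2 fold change of 0.49 (SE 0.094, edgeR adjusted p = 7.08e-04). The ranges of the 2 sides overlapped for all 3 genes, and in each mouse the value with Fezf1 was the higher of the pair.

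Hpcal1 was at a log2 fold change of 0.26 in Fezf1 neurons and did not pass (edgeR adjusted p = 0.203). It was higher in 5 of 6 mice, and in thinned counts it passed at 0.79 (adjusted p = 6.12e-04, with a range of 6.12e-04 to 1 over the alternatives). Ncald no longer passed in thinned counts (0.52, adjusted p = 0.121, with a range of 6.32e-05 to 0.782), whereas Calb1 and Hpca did. Calb2 was at -0.03, and the 3 other members that did not pass ran from -0.31 (Necab2) to 0.43 (Vsnl1). The arcuate neuron genes summed to 43.0 to 180 CPM in Fezf1 neurons and 75.5 to 3008 CPM in the rest, with 3 to 5 of 7 at 0 in a mouse's Fezf1 neurons. The GABA neuron genes summed to 0 to 50.2 CPM with Fezf1 and 56.0 to 155 CPM without, and 2 of 9 general neuron genes tested passed as higher. The VMH genes Bdnf and Fam19a1 were higher (0.91 and 1.10). The median depth was 7320 counts against 5094. With Slc17a6 neurons alone the 3 members passed again, and any further part of these differences in the result was not tested.

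In Tac1 neurons, Hpca was higher and its relative Hpcal1 lower. With Calb2, 3 of 8 members passed, where 0.702% of 4416 genes did. Genes called as higher were 0.385% of all and genes called as lower 0.317%, and DESeq2 called 0.136% and limma voom 0.793%. The median log2 fold change was -0.16 over the 8 members and -0.01 over all genes tested. Hpcal1 was at 175 to 372 CPM (median 278) in Tac1 neurons and at 338 to 739 CPM (median 431) in the rest, ranges that overlapped slightly, and was lower in 6 of 6 mice. Its log2 fold change was -0.67 (SE 0.11, edgeR adjusted p = 3.76e-05), and it passed in thinned counts too. Hpca was at 318 to 466 CPM (median 366) with Tac1 and 176 to 357 CPM (median 246) without, and was higher in 6 of 6 mice. Its log2 fold change was 0.44 (SE 0.10, edgeR adjusted p = 0.0104).

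Hpca no longer passed in DESeq2 (adjusted p = 0.183), in thinned counts (0.592), without female 3 (0.0574) or without male 3 (0.121), with a range of 0.00412 to 1 over the alternatives. Calb2 was at 1571, 62.2 and 1026 CPM in the Tac1 neurons of the females and 1250, 1299 and 932 CPM in those of the males. In the neurons without Tac1 it was at 1207, 102 and 887 CPM in females 1 to 3 and at 847, 1244 and 905 CPM in males 1 to 3. It was thus higher with Tac1 in 5 of 6 mice and lower in female 2, and the log2 fold change was 0.26 (SE 0.066, edgeR adjusted p = 0.043). This call was lost in 7 of 10 other settings, among them DESeq2 (adjusted p = 0.999) and RLE scaling (0.0531), and without female 1, female 3 or male 1 (0.125, 0.103 and 0.456), with a range of 0.0295 to 1.

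Calb1 was lower in the Tac1 neurons of 6 of 6 mice (545 ± 213 against 667 ± 217 CPM, SD, n = 6) but missed the threshold at a log2 fold change of -0.27 (edgeR adjusted p = 0.0562). It passed with no filter on low counts (adjusted p = 0.0361) and in Slc17a6 neurons alone (0.0129), with a range of 0.0129 to 1 over the alternatives. The 4 other members that did not pass ran from -0.30 (Necab2) to 0.32 (Hpcal4). Pomc was lower in Tac1 neurons (-2.08) and Adcyap1 higher (0.80). The arcuate genes summed to 70.8 to 656 CPM against 99.8 to 2283 CPM, with 1 to 5 of 7 at 0 with Tac1. The GABA neuron genes summed to 0 to 70.9 CPM against 51.2 to 154 CPM, and the median depth was 7156 counts against 5187. In Slc17a6 neurons alone Hpca and Hpcal1 passed again and Calb2 did not (0.21, adjusted p = 0.196).

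The sensors Hpca and Hpcal1 are near relatives that passed in opposite directions with Tac1 and both as lower with Pdyn. Whether their starts have a part in this was not tested. The stretches before the starts are shown next. These are the 250 bases before the annotated start (RefSeq, GRCm38.p6, 5′ to 3′ on the gene's strand). For Hpca this is chr4:129121748-129121997 on the reverse strand, the most upstream of its 3 starts in the table, and for Hpcal1 chr12:17690559-17690808 on the forward strand. In GENCODE vM21 the Hpca gene begins further upstream, at 129122036, so the Hpca stretch lies inside that gene. The Hpcal1 stretch lies before its GENCODE start at 17690856, so the 2 stretches are not alike in position. Capitals mark the GC box GGGCGG, or CCGCCC where it lies on the other strand.
Hpca upstream: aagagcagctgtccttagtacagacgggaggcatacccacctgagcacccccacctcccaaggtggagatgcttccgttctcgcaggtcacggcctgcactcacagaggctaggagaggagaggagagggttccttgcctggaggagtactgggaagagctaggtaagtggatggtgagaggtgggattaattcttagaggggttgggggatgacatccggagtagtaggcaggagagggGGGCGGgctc
Hpcal1 upstream: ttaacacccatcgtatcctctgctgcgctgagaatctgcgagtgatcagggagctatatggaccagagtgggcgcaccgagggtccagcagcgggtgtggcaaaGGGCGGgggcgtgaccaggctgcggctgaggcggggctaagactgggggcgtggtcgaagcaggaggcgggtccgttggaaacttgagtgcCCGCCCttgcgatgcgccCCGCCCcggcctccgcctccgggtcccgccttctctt
This stretch held 1 GC box for Hpca and 3 for Hpcal1, and its GC content was 58.8% and 66.8%. Before the other Hpca starts there were 2 GC boxes at 71.2% GC and 0 at 51.2%, so the contrast depends on the start taken. The median GC content was 52.4% over 32851 promoters, and a GC box on either strand was found in 32.7% of them. The SF-1 element CAAGGTCA, searched on both strands, was in neither stretch shown and in 1.33% of all promoters. Starts of 6 of the 10 genes matched the table, those of Hpca, Hpcal1, Hpcal4, Necab2, Pvalb and Vsnl1, and the SF-1 element was in none of them. Calb1, Calb2, Ncald and Necab1 were not matched. A match is of letters alone and does not show a bound site.

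In Pdyn neurons, Calb1 was higher and Hpca and Hpcal1 were lower. These 3 of 8 members passed, where 1.89% of 4180 genes did. For all genes the share was 1.08% as higher and 0.813% as lower, 0.67% in DESeq2 and 1.32% in limma voom. The median log2 fold change was -0.09 over the 8 members and -0.02 over all genes tested. Hpca was at 105 to 322 CPM (median 245) in Pdyn neurons and 249 to 478 CPM (median 359) in the rest, and was lower in 6 of 6 mice. Its log2 fold change was -0.55 (SE 0.10, edgeR adjusted p = 5.61e-04). Calb1 was at 469 to 1009 CPM (median 683) with Pdyn and 313 to 764 CPM (median 539) without, and was higher in 6 of 6 mice. Its log2 fold change was 0.43 (SE 0.083, edgeR adjusted p = 8.07e-04). In thinned counts neither passed (Hpca -0.67, adjusted p = 0.0636; Calb1 0.33, adjusted p = 0.409), with ranges of 1.81e-05 to 1 and 4.97e-05 to 1 over the alternatives.

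Hpcal1 was at 237 to 363 CPM (median 317) in Pdyn neurons and 308 to 684 CPM (median 366) in the rest, lower in 5 of 6 mice and not in male 3. Its log2 fold change was -0.40 (SE 0.11, edgeR adjusted p = 0.0309). The call was lost in 7 of 10 other settings, among them DESeq2 and limma voom (adjusted p = 0.238 and 0.0883), and without female 2, female 3, male 1 or male 2 (0.079, 0.118, 0.183 and 0.118), with a range of 9.73e-04 to 1. Ncald was higher in 5 of 6 mice but did not pass at 0.33 (edgeR adjusted p = 0.0651). It passed with RLE scaling (0.0391), with 2 counts of Pdyn asked for (0.0161) and without female 2 (0.0255), with a range of 0.0161 to 1. The 4 other members that did not pass ran from -0.21 (Calb2) to 0.31 (Necab2), and of these Calb2 passed without male 1 (-0.35, adjusted p = 0.0471, with a range up to 1). The arcuate genes summed to 69.9 to 2063 CPM with Pdyn and 57.0 to 1901 CPM without. The GABA neuron genes summed to 15.8 to 69.9 CPM with Pdyn and 38.4 to 170 CPM without. The VMH genes Nptx2 and Nr5a1 were higher (1.13 and 0.71), the synaptic vesicle gene Syt1 was lower (-0.60), and the median depth was 7198 counts against 5094. With Slc17a6 neurons alone Hpca and Calb1 passed again.

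In Sst neurons, Hpcal1 was the single member of 7 that passed, where 0.221% of 3165 genes did. Genes called as higher were 0.126% of all and genes called as lower 0.0948%, and DESeq2 called 0.0316% and limma voom 0.158%. It was at 281 to 955 CPM (median 498) with Sst and 265 to 560 CPM (median 311) without, and the ranges overlapped. It was higher in 5 of 6 mice and lower in female 3. The log2 fold change was 0.51 (SE 0.11, edgeR adjusted p = 0.0159). The call was lost in DESeq2 (adjusted p = 0.428), in thinned counts (0.0932 at a log2 fold change of 0.72), in Slc17a6 neurons alone (0.359), and without female 1, female 2, male 2 or male 3 (0.0596 to 0.215), with a range of 0.00108 to 1.

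The other 6 members tested in Sst neurons ran from -0.20 (Hpcal4) to 0.05 (Ncald), with a median of -0.07 over the 7 against -0.01 over all genes. Calb2 passed as lower (-0.51, adjusted p = 6.36e-04) where 2 counts of Sst were asked for, and not otherwise (range 6.36e-04 to 1). Necab1, which was too rare to be tested, was at 21.8 ± 8.51 CPM in Sst neurons and 7.99 ± 9.83 CPM in the rest (SD, n = 6 mice), and was higher in 6 of 6 mice (two-sided exact sign-flip p = 0.03125, the smallest that 6 mice can give, unadjusted). In thinned neurons Necab1 was counted in a mean of 1.11% with Sst and 1.31% without. It was then counted in 7 of 466 neurons in all, too few to give a direction. Of 54 such tests of a member by a marker 13 had an unadjusted p under 0.05, and the smallest adjusted p was 0.13. Of the 13, 5 did not pass in edgeR: besides Necab1 these were Calb1 lower and Hpcal4 higher with Tac1, Hpca lower with Nr5a1 and Necab2 lower with Fezf1. The Necab1 value rests on 42 Necab1 counts in all, and in females 1 and 2 and male 2 on 1 neuron each. The lateral hypothalamic genes Hcrt and Pmch summed to 0 to 10814 CPM with Sst, with a median of 0 over the mice, and to 0 to 8.12 CPM without. The GABA neuron genes summed to 75.6 to 190 CPM against 23.9 to 84.4 CPM, and the part of either in the Hpcal1 difference was not tested.

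Gad1 neurons were few, with 35 in all and 2 in female 2, which was left out of the fit. Hpcal1 was higher in them and Calb2 lower, and these 2 of 8 members passed where 0.807% of 4090 genes did. For all genes the share was 0.44% as higher and 0.367% as lower, 0.244% in DESeq2 and 0.636% in limma voom. The median log2 fold change was -0.29 over the 8 members and -0.02 over all genes tested. Hpcal1 was at 842 and 775 CPM in the Gad1 neurons of females 1 and 3 and at 598, 1641 and 293 CPM in those of males 1, 2 and 3. Without Gad1 it was at 304, 245, 261, 396 and 316 CPM in the same mice. It was higher with Gad1 in 4 of 5 mice and slightly lower in male 3. The log2 fold change was 1.34 (SE 0.16, edgeR adjusted p = 2.10e-13), and it passed in every alternative fit except that without mouse as a term (adjusted p = 0.101). By an exact sign-flip test of the CPM difference over 5 mice the p was 0.125.

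Calb2 was at 187 and 941 CPM in the Gad1 neurons of females 1 and 3 and at 242, 344 and 537 CPM in those of males 1, 2 and 3. Without Gad1 it was at 1448, 967, 1084, 1315 and 936 CPM. It was lower with Gad1 in 5 of 5 mice, by little in female 3, and the log2 fold change was -1.17 (SE 0.17, edgeR adjusted p = 1.42e-09). The Gad1 neurons of a mouse held 4 to 85 Calb2 counts each. The call was lost in limma voom (adjusted p = 0.0674), in DESeq2 (0.38) and in Slc17a6 neurons alone (-0.42, adjusted p = 0.999), with a range of 5.14e-14 to 0.999. In this comparison edgeR estimated infinite prior degrees of freedom, so that a gene's own spread between mice did not enter its test. For the other 5 markers the prior degrees of freedom were 43.43 to 62.69, so that spread pooled over genes carried most of the weight. Calb1 was at -0.56 and did not pass (edgeR adjusted p = 0.113). It passed with no filter on low counts (0.00249), with 2 counts of Gad1 asked for (2e-05) and without male 2 (0.0217), with a range of 2e-05 to 0.999.

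Genes of other neuron classes moved with Gad1 as well. Pomc was higher (2.43), and the arcuate genes summed to 0 to 4368 CPM with Gad1 and 87.6 to 1418 CPM without (6 mice). Of the VMH genes, Adcyap1, Bdnf, Fezf1, Slc17a6 and Sox14 were lower (-0.73 to -2.48), and the summed VMH level was 0 to 1040 CPM against 988 to 1647 CPM. Slc17a6 was counted in 48.6% of Gad1 neurons and 80.7% of the rest, and the median depth was 6614 counts against 5996. The fit in Slc17a6 neurons alone thus rested on only a part of the 35 Gad1 neurons. The loss of the Calb2 call there does not show that Calb2 was alike on the 2 sides. Beyond the restriction to Slc17a6 neurons, the part of these classes in the differences of Hpcal1 and Calb2 was not tested.

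**Figure D4:**
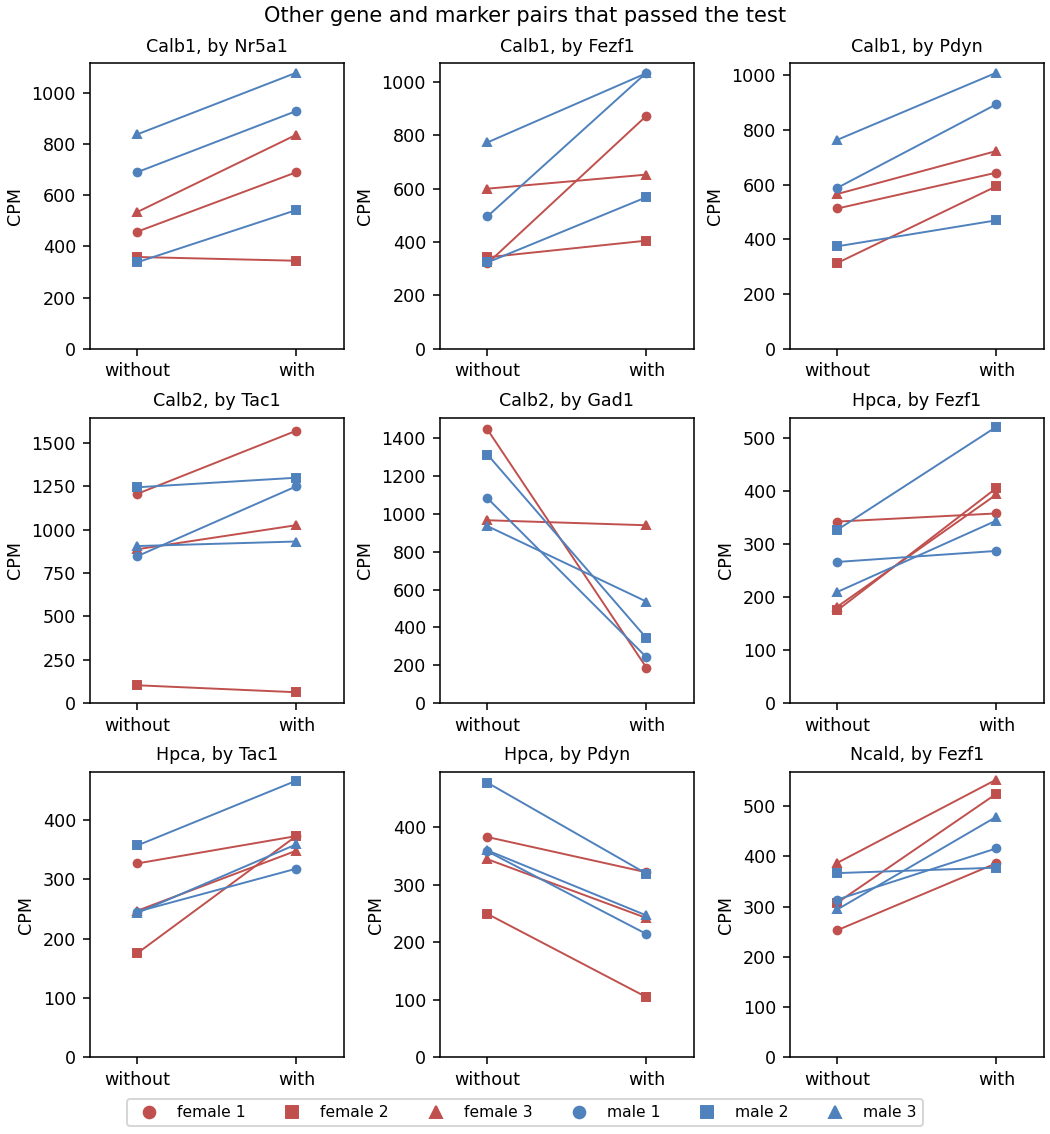
Each panel plots the level (CPM, linear axis from 0) of a gene in the neurons of each mouse without and with a count of a marker, for the 9 passing comparisons other than those of Hpcal1, with a line joining the values of a mouse. All lines rise for Calb1, Hpca and Ncald by Fezf1 and fall for Hpca by Pdyn, and Calb2 in female 2 lies at or under 102 CPM by Tac1.

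The interaction of sex with each marker was tested in the same way. Of 48 tests of a member 0 passed, against 0.0817% of genes for Nr5a1, 0.0546% for Fezf1, 0.0186% for Tac1, 0.0394% for Pdyn, 0.0766% for Sst and 0.123% for Gad1. DESeq2 and limma voom also called 0 members, and 3 of the 48 had an unadjusted p under 0.05. The smallest p was that of Calb1 with Sst, at a log2 interaction of 0.94 (SE 0.24, edgeR adjusted p = 0.114). That term passed in 7 alternatives, among them RLE scaling (adjusted p = 0.045), no filter on low counts (0.0351), 1000 genes per well (0.00788) and Slc17a6 neurons alone (0.0202). It also passed without female 1, female 2 or male 2 (0.00559, 0.0228 and 1.21e-04). Calb2 with Pdyn was at 0.61 (adjusted p = 0.426) and passed without female 3 (0.93, adjusted p = 0.00889).

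Whether the members exclude each other within neurons was asked pair by pair in thinned counts. For each mouse the number of neurons with both genes was set against the number expected from the share of each gene in that mouse. Of the 45 pairs, 28 had at least 5 expected neurons. The ratio of observed to expected ran from 0.79 to 1.24 with a median of 1.01, and 0 pairs passed after adjustment over the 28 (two-sided exact sign-flip test over mice, smallest adjusted p = 0.4375). With 6 mice the smallest unadjusted p of this test is 0.03125, so a pair could pass only if many pairs reached it together. The lack of a pass therefore does not decide whether members exclude each other. No pair was below expectation in all 6 mice. Calb1 and Calb2 were found together in 204 of 466 neurons where 199 were expected (ratio 1.02), above expectation in 4 mice and below in 2.

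Hpcal1 was found more often than expected with 2 other sensors in 6 of 6 mice. With Vsnl1 it was in 19 neurons against 15.3 expected (ratio 1.24), and with Ncald in 114 against 104 (ratio 1.10). The excess with Vsnl1 was largest in male 1 (5 neurons against 3.08) and very small elsewhere, as in male 2 (1 against 0.964). Its sign in 6 of 6 mice thus rests on few neurons. The exact sign-flip p was 0.03125 for both pairs before adjustment, the smallest that 6 mice can give. Neither pair passed after adjustment. The lowest ratios were those of Calb2 with Necab1 (0.79, 4 neurons against 5.07), Vsnl1 with Ncald (0.80, 14 against 17.6) and Calb1 with Vsnl1 (0.83, 16 against 19.3). Without thinning, 30 of 36 pairs were above expectation and 0 passed. A neuron with more counts has more of every gene, and the unthinned ratios include this.

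**Figure D5:**
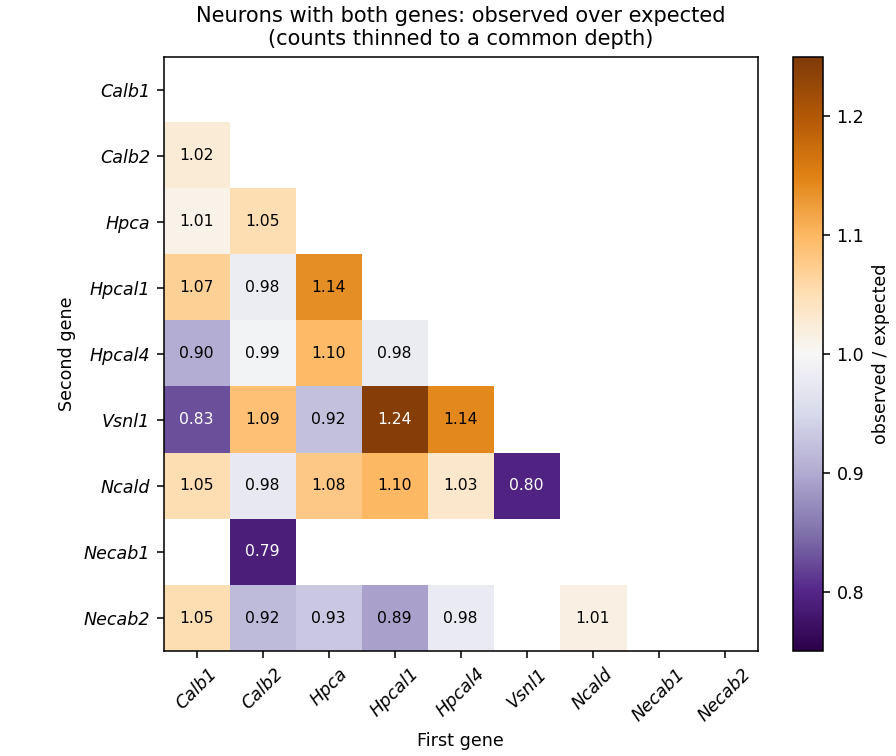
Each cell gives the number of neurons with counts of both genes over the number expected within mice, summed over the 6 mice, in counts thinned to a common depth. Orange is above and purple below 1. Blank cells had under 5 expected neurons, and the 28 ratios lie between 0.79 and 1.24.

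Levels were also compared across neurons. Pearson's r of the log level (counts per 10000) was taken across the neurons of each mouse and averaged over the 6 mice, among 6653 genes, as a description. The points share a plate and a depth range, and r was low throughout. Calb1 was most like Tmem35a (0.31), Vstm2a (0.26) and Fezf1 (0.26), and Ncald most like Fezf1 (0.25), Hpcal1 (0.22) and Fabp5 (0.22). Hpca was most like Fxyd7 (0.23), Fezf1 (0.22) and Stmn3 (0.22), and Calb2 most like Fxyd7 (0.27), Atp6ap1 (0.24) and Tubb2a (0.23). Hpcal1 was most like Ecel1 (0.23), Ncald (0.22) and Tubb2a (0.22). Vsnl1 was most like Clip4 (0.23), Syn2 (0.21) and 2010300C02Rik (0.21), and Necab2 most like Prpsap1 (0.18), Ralgps1 (0.17) and Ddc (0.17). Calb1 and Calb2 were at 0.07, and their r was above 0 in 3 of 6 mice.

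Other calcium genes were tested in the same fits, where 0.221% to 1.92% of all genes passed. Of 8 other neuronal calcium sensor genes, 4 were tested for each marker, and Kcnip1 was the 1 that passed, as higher in Nr5a1 neurons (log2 fold change 0.42, SE 0.11, edgeR adjusted p = 0.0421) and in Pdyn neurons (0.62, SE 0.11, edgeR adjusted p = 5.18e-04). Kcnip1 encodes a sensor that binds A-type potassium channels. Of 12 calmodulins and relatives 3 to 4 were tested, of 25 other cytosolic EF-hand genes 8 to 10, of 11 calcium pumps and exchangers 5 and of 12 endoplasmic reticulum calcium genes 7. In these 4 lists 0 genes passed for any of the 6 markers, and in all 5 lists 0 passed for sex.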

How the data were processed

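Messenger RNA was counted in single sorted cells of 6 mice (3 female, 3 male, 96 wells each). The authors deposited raw counts, 1 whole number per gene and well. Libraries came from papain-dissociated tissue and a BD Precise kit per the labels' protocols, and the submitters' processing notes name HTSeq and mm10. Not given in the sources used here are the aligner, the counted strand, how reads matching several genes were handled, and whether a count is a molecule or a read.

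Neurons were wells with at least 500 genes, under 25% mitochondrial counts and at least 3 of 10 neuronal genes (9 in the tables). No doublet caller was run, and no 2 neurons held identical counts. Neurons totalled 184939 to 782366 counts per mouse. Counts were summed per mouse over all neurons, or over those with at least 1 count of a marker and those without (at least 3 neurons a side), and compared by the quasi-likelihood test of edgeR 4.0.16 (R 4.3.3), with TMM scaling, the filter filterByExpr, Benjamini-Hochberg adjustment at 0.05 and, for markers, the mouse as a block. The marker itself was left out of its table. DESeq2 1.42.0 and limma 3.58.1 (voom) gave alternatives. Others were RLE scaling, no filter on low counts, all kept wells, 1000 genes per well, thinned counts (2175 per neuron, the 10th percentile, seed 7), 2 counts of the marker, neurons with Slc17a6, no block and leaving out each mouse. In thinned counts each marker was called again, so fewer neurons held it and some moved to the side without it. The voom, Slc17a6 and sign-flip alternatives were chosen after seeing the data. Exact tests were two-sided, over the 20 assignments of sex or the 64 sign assignments of 6 mice. The fits were tested on simulated counts. Scripts ran in Python 3.11.15 with scipy 1.17.1. Levels per kilobase used the merged exons of GENCODE vM21.

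The same-numbered female and male mice are not paired by the labels. The members, lists and tests were chosen with earlier results of these data known. All 10 members were named in every comparison, other calcium genes where they passed (at most 4 per list), and for likeness the 3 genes with the highest mean r among genes in at least 10% of neurons (those of Hpcal4 are not reported here). The series' design text counts each sample as 1 mouse, so the mouse was the unit of every test. In the marker fits of edgeR, spread pooled over genes carried most of the weight. For Gad1 it carried all of it, so these p-values do not measure a gene's own spread between mice alone. The labels say nothing of litters or batches.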

Additional observations from a re-analysis of the deposited data

How the results depend on the processing

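With the replicate block, here the mouse, left out, 0 members passed in edgeR for each of the 6 markers (0 to 3 at an unadjusted p under 0.05), against 2 for Nr5a1, 3 for Fezf1, 3 for Tac1, 3 for Pdyn, 1 for Sst and 2 for Gad1 with it. For sex, the replicate number of the labels as a block gave 0 members, as did the fit without it. Same-numbered mice deviated together in 1 of 3 pairs (r = -0.13, -0.09 and 0.16), and 1 of the 3 females correlated best with its own number. So few and low values cannot decide whether the numbers pair the mice.

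Over all genes, DESeq2 called 10, 36, 6, 28, 1 and 10 for Nr5a1, Fezf1, Tac1, Pdyn, Sst and Gad1, and thinned counts gave 1, 11, 10, 16, 0 and 5, against 48, 86, 31, 79, 7 and 33. Among the members, in thinned counts 0 passed for Nr5a1, 0 for Pdyn, 0 for Sst, 1 for Tac1 and 1 for Gad1 (2, 4, 2, 3 and 2 at an unadjusted p under 0.05, of 5 or 6 tested). DESeq2 called 1 for Tac1, 0 for Sst and 1 for Gad1, and limma voom 1 for Gad1. With no filter on low counts 0 passed for Sst, and with 2 counts of the marker 2 did. In neurons with Slc17a6 alone 0 passed for Sst and 1 for Gad1. When each mouse was left out in turn, 1 to 3 members passed for Tac1 and 0 to 1 for Sst. For the interaction of sex and marker 1 member passed with RLE scaling, with no filter, with 1000 genes per well and in Slc17a6 neurons, and 0 to 1 when each mouse was left out. The cause of these changes was not tested, except that thinned counts hold fewer neurons, fewer of them with a count of the marker, and far fewer genes tested.

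Of the 14 member calls, none changed sign. Of the 35 tests of a member that passed under no setting, 17 had another sign in at least 1 of them (54 of 531 values, between -0.46 and 0.44). The interaction of sex with Gad1 could not be fitted in thinned counts, with 2 counts of Gad1 or in Slc17a6 neurons, and the fits of Gad1 itself in thinned counts and with 2 counts rested on 2 mice. Pvalb, Necab1 and, for Sst, Vsnl1 had too few counts to be tested.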
